A study of Mus musculus with 6 samples.

Results

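Axon guidance ligands and receptors were examined in the hippocampus of Phf21bΔ4/Δ4 mice. The genes were chosen by symbol, as the semaphorins of classes 3 to 7, the plexins, the neuropilins, the ephrins and their Eph receptors, the netrins with Dcc and the Unc5 receptors, the netrin-G genes, and the Slit ligands with the Robo receptors. Of the 14477 genes listed in the deposited values, 68 had such a symbol, 36 of them ligands or membrane-anchored cues and 32 receptors or coreceptors. In the GENCODE annotation of GRCm38, 71 protein-coding symbols match, and the other 3 (*Efna4*, *Epha1*, and *Epha2*) were not analysed here. The rule uses the symbol alone, but it was set with earlier results of these data known.

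These families form the main short-range and long-range signals that steer growing axons. Secreted class 3 semaphorins act through neuropilins that bind the ligand and A-type plexins that pass the signal on, whereas most membrane-bound semaphorins bind plexins directly. Ephrins are anchored to the membrane and meet Eph receptor tyrosine kinases on the neighboring cell, netrins signal through Dcc and the Unc5 receptors, and Slits repel axons that carry Robo receptors. In the adult hippocampus, the same proteins are known for their roles at synapses and dendritic spines, and their levels differ between CA1, CA3, and the dentate gyrus.

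RNA-Seq libraries were made from hippocampal tissue of 3 mice homozygous for a CRISPR/Cas9 deletion in exon 4 of *Phf21b* (Phf21bΔ4/Δ4, replicates 2, 3, and 6) and 3 Phf21b+/+ mice (replicates 5, 7, and 8), at baseline and without treatment. The deletion is carried by every cell of the body, the line was kept on C57BL/6J, and littermates of both sexes, described as young adults, were used in the study. The sex, age, and litter of each of the 6 mice are not given in the labels. The question was which of the guidance genes differed between the genotypes, and in which mice. Values are CPM (reads of a gene in proportion to library size), which the authors scaled to effective library size and deposited as log2. Values for single mice are given in the order of replicates 2, 3, and 6 for Phf21bΔ4/Δ4 and 5, 7, and 8 for Phf21b+/+. Differences are log2 changes (Phf21bΔ4/Δ4 minus Phf21b+/+) with their SE from limma's moderated 2-sided test across the 14477 genes, and the FDR is the Benjamini-Hochberg adjusted p-value over those genes. Differential expression here means an FDR under 0.1 together with a fold change above 1.3.

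The libraries held between 20495605 and 24881257 reads on the listed genes, so that 3 reads, taken as the smallest level the depth can show, came to between 0.127 and 0.143 CPM. *Phf21b* was at 2.15, 3.57, and 3.87 CPM in Phf21bΔ4/Δ4 mice and 6.50, 5.23, and 6.47 CPM in Phf21b+/+ mice. The genotypes did not overlap, but the difference did not pass the FDR threshold (log2 change -0.96, SE 0.26, FDR 0.141 by limma), and values over the whole gene do not read the deleted stretch itself. Markers of the hippocampal fields were present in all 6 libraries, with 13 of 14 CA1 genes, 16 of 17 CA2 and CA3 genes, and all 15 dentate granule genes listed. Within each genotype, a library stood apart from the rest of its group in a marker list. Phf21b+/+ replicate 7 had a summed CPM of 15896 over 9 choroid plexus genes against 35.0 and 1000.2 in replicates 5 and 8 and 27.9 to 87.6 in Phf21bΔ4/Δ4 mice. Phf21bΔ4/Δ4 replicate 6 had a summed CPM of 1009 over the 15 dentate granule genes against 642 and 589 in replicates 2 and 3 and 1170 to 1354 in Phf21b+/+ mice. On this list, replicates 2 and 3 lay further from the Phf21b+/+ mice than replicate 6 did. Medial habenula genes, from a nucleus next to the hippocampus, differed between the genotypes in every mouse, with a summed CPM of 417 to 477 in Phf21bΔ4/Δ4 mice and 927 to 1180 in Phf21b+/+ mice.

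All 68 guidance genes passed the authors' filter on low levels (at least 1 CPM in 2 or more samples). Levels of different genes were compared as CPM per kilobase of exon. On that scale, *Epha4*, a receptor that binds ephrins of both classes, was by far the most abundant, at 97.5 as the mean over the 6 mice. It was followed by *Sema7a*, a semaphorin with a lipid anchor (35.5), *Efnb3* (32.5), *Epha6* (30.4), *Slit1* (30.3), and *Sema6b* (29.1). The most abundant member of each other family, on the same scale, was *Plxna4* (22.2) among the plexins, *Ephb6* (21.8) among the EphB receptors, *Efna3* (21.7) among the A-type ephrins, *Unc5a* (20.1) among the netrin receptors, *Nrp1* (13.3) of the neuropilins, and *Sema3e* (13.1) among the class 3 semaphorins. The leading members of the remaining families were lower, at 9.27 for *Robo2*, 6.48 for *Ntng1*, and 2.16 for *Ntn4*. The lowest levels were those of *Robo4* (0.512), a Robo receptor of blood vessels, and *Sema3a* (0.639). These levels rest on the merged exons of the annotation, and they cannot tell isoforms of one gene apart.

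Few guidance genes passed the test across all genes, and most had a log2 change above 0. Differentially expressed were 2 of the 68 (2.94%), *Plxna1* and *Ephb3*, both higher, against 1.22% of all genes (0.553% higher and 0.663% lower). The paper's own list, from a different test (edgeR) at these thresholds, holds *Plxna1*, also higher, but not *Ephb3*. The genotypes did not overlap, meaning that each Phf21bΔ4/Δ4 mouse was above (or each below) all Phf21b+/+ mice, in 24 of the 68 (35.3%), 17 higher and 7 lower, against 31.0% of all genes (15.0% higher and 16.0% lower). An unadjusted p under 0.05 was reached by 23 genes (33.8%), 16 higher and 7 lower, against 23.6% of all genes (11.6% higher and 12% lower), and 21 genes met both criteria. The log2 change was above 0 in 47 of the 68 genes (69.1%) and in 47.6% of all genes, and its median was 0.23 for the guidance genes and -0.019 for all genes. The SD of log2 CPM between mice of one genotype had a median over guidance genes of 0.34 among Phf21bΔ4/Δ4 mice and 0.20 among Phf21b+/+ mice, against 0.17 and 0.13 for all genes. In tissue of mixed cells, a lower level can come from fewer cells of a type or from less RNA per cell, and these cannot be told apart here.

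**Figure D1:**
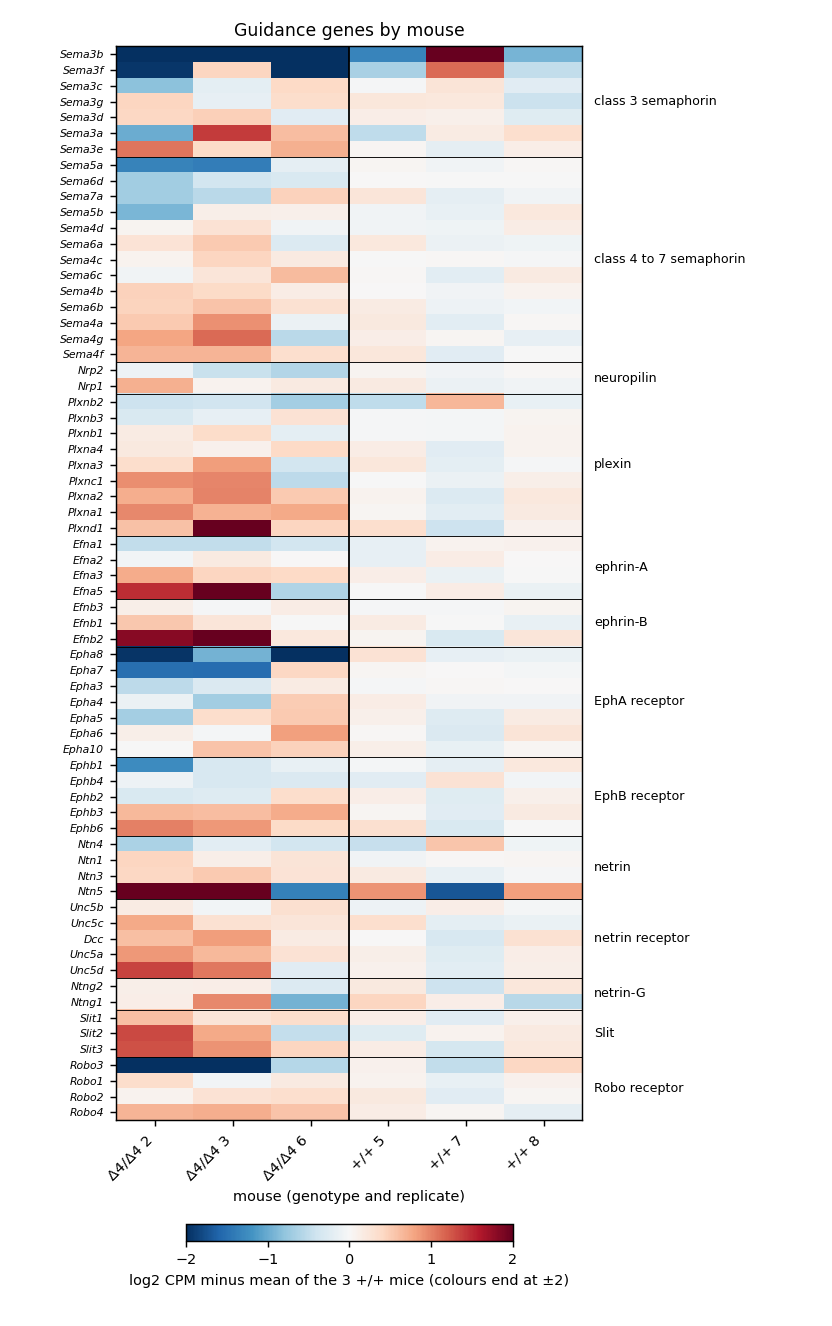
Level of the 68 guidance genes in each of the 6 mice, as log2 CPM minus the mean of the 3 Phf21b+/+ mice of that gene, with genes in rows grouped by family and ordered within it by their log2 change. Red is above and blue below the Phf21b+/+ mean, and colors end at 2 log2 units; Phf21bΔ4/Δ4 replicate 6 is paler than replicates 2 and 3 or of the opposite color in many rows, and Phf21b+/+ replicate 7 stands out for *Sema3b*, *Sema3f*, *Plxnb2*, and *Ntn4*.

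**Figure D2:**
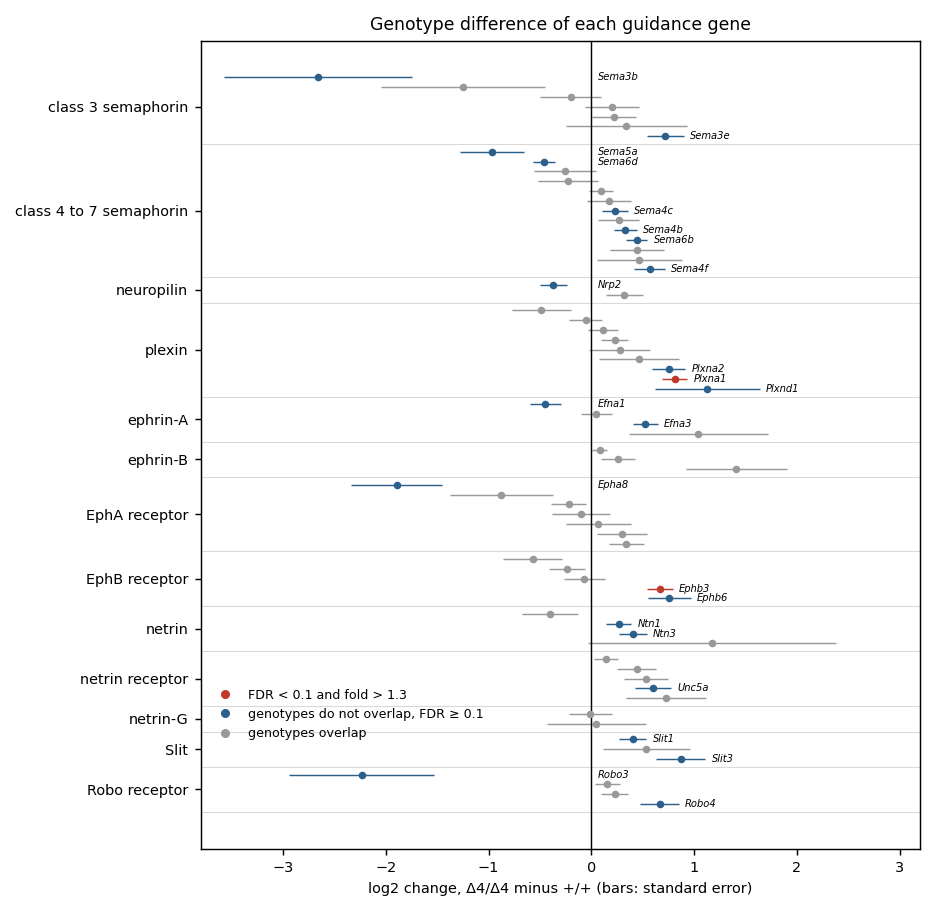
Log2 change (Phf21bΔ4/Δ4 minus Phf21b+/+, horizontal axis) of each of the 68 guidance genes by family, with bars of 1 SE from limma. Red marks *Plxna1* and *Ephb3*, blue the other 22 genes whose genotypes did not overlap, and gray the genes whose genotypes overlapped; the 3 Slit genes and the 5 netrin receptors all lie to the right of 0.

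Among the class 3 semaphorins, which are secreted, none of the 7 passed the test. *Sema3e*, which binds Plxnd1 without a neuropilin, was at 190.0, 118, and 149 CPM in Phf21bΔ4/Δ4 mice and 93.4, 80.4, and 100.05 CPM in Phf21b+/+ mice. Every Phf21bΔ4/Δ4 mouse lay above every Phf21b+/+ mouse, most clearly replicate 2 (log2 change 0.72, SE 0.18, FDR 0.135 by limma). *Sema3b*, a secreted repellent, was at 1.69, 1.0002, and 2.04 CPM in Phf21bΔ4/Δ4 mice and 3.84, 45.7, and 5.03 CPM in Phf21b+/+ mice. The genotypes did not overlap, but Phf21b+/+ replicate 7 was far above the other 5 mice (log2 change -2.66, SE 0.91, FDR 0.169 by limma), and without that mouse the log2 change was -1.54 (FDR 0.32, limma, with a range of 0.0524 to 0.356 over all alternatives). *Sema3f*, which lies 72.3 kb from *Sema3b* on chromosome 9, was at 1.27, 6.62, and 1.04 CPM in Phf21bΔ4/Δ4 mice and 3.13, 10.8, and 3.51 CPM in Phf21b+/+ mice. It too was highest in Phf21b+/+ replicate 7, and its genotypes overlapped, as did those of *Sema3a*, *Sema3c*, *Sema3d*, and *Sema3g*.

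Of the 13 membrane-bound semaphorins of classes 4 to 7, none passed the test, and 6 (46.2%) did not overlap between the genotypes, against 31.0% of all genes. In every Phf21bΔ4/Δ4 mouse, 4 were higher and 2 were lower than in any Phf21b+/+ mouse, against 15.0% and 16.0% of all genes. *Sema5a*, a transmembrane semaphorin with thrombospondin repeats, was at 99.8, 96.0, and 221 CPM in Phf21bΔ4/Δ4 mice and 257, 241, and 256 CPM in Phf21b+/+ mice. The 3 Phf21b+/+ mice lay close together, and Phf21bΔ4/Δ4 replicates 2 and 3 lay far below them, with replicate 6 in between (log2 change -0.97, SE 0.31, FDR 0.160 by limma). *Sema6d*, a ligand of A-type plexins, was at 82.8, 103, and 108 CPM in Phf21bΔ4/Δ4 mice and 134, 133, and 133 CPM in Phf21b+/+ mice. Here all 3 Phf21bΔ4/Δ4 mice were lower (log2 change -0.46, SE 0.11, FDR 0.133 by limma), and the Phf21b+/+ mice were nearly equal. On the higher side, *Sema6b*, another ligand of A-type plexins, was at 134, 145, and 120.4 CPM in Phf21bΔ4/Δ4 mice and 109, 90.8, and 94.5 CPM in Phf21b+/+ mice (log2 change 0.44, SE 0.11, FDR 0.133 by limma). *Sema4f* was at 42.3, 42.1, and 33.2 CPM in Phf21bΔ4/Δ4 mice and 30.7, 22.5, and 26.2 CPM in Phf21b+/+ mice (log2 change 0.57, SE 0.15, FDR 0.141 by limma). In both genes every Phf21bΔ4/Δ4 mouse was above the Phf21b+/+ mice. A smaller difference in the same direction was measured for *Sema4b* (log2 change 0.33, SE 0.11, FDR 0.165 by limma) and *Sema4c* (log2 change 0.23, SE 0.13, FDR 0.299 by limma). *Sema7a*, the most abundant semaphorin, was at 76.4, 84.7, and 169 CPM in Phf21bΔ4/Δ4 mice and 146, 109, and 118 CPM in Phf21b+/+ mice, and replicate 6 was the highest of all 6 mice while replicates 2 and 3 were the lowest.

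Of their receptors, the plexins, *Plxna1* was higher in Phf21bΔ4/Δ4 mice. The gene occupies the minus strand of chromosome 6 (GRCm38, 89316314 to 89362620) and encodes an A-type plexin that conveys the signal of secreted semaphorins bound to neuropilins and of some Sema6 proteins. *Plxna1* was at 231, 192, and 200.3 CPM in Phf21bΔ4/Δ4 mice and 121, 102, and 133 CPM in Phf21b+/+ mice. The highest Phf21b+/+ mouse was well under the lowest Phf21bΔ4/Δ4 mouse, with 208 ± 20.7 CPM (SD, n = 3) against 119 ± 15.5 CPM (SD, n = 3), and the difference passed the test (log2 change 0.81, SE 0.12, FDR 0.0674 by limma). It did not pass when Phf21bΔ4/Δ4 replicate 2 or 3 or any one Phf21b+/+ mouse was left out, with an FDR of up to 0.242 (limma), and its log2 change then stayed between 0.71 and 0.90. Over the 21 alternatives, the FDR ran from 0.0114 to 0.242, and *Plxna1* did not pass in 8 of them. Of its exons, 10.7% overlap *Gm26811* on the other strand. The strandedness of the counting is not given in the sources used here, so that reads of both genes cannot be told apart over that stretch.

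*Plxna2*, an A-type plexin that receives Sema6a, was at 194, 233, and 168 CPM in Phf21bΔ4/Δ4 mice and 122, 97.0, and 134 CPM in Phf21b+/+ mice. Its genotypes did not overlap either (log2 change 0.75, SE 0.16, FDR 0.127 by limma), but its SE was larger and it did not pass the threshold. *Plxnd1*, the receptor of Sema3e, was at 22.2, 75.8, and 20.1 CPM in Phf21bΔ4/Δ4 mice and 18.8, 11.1, and 15.6 CPM in Phf21b+/+ mice. Its genotypes did not overlap, yet replicate 3 alone was far above the rest (log2 change 1.12, SE 0.51, FDR 0.233 by limma). *Plxnc1*, the plexin that binds Sema7a, was at 124, 129, and 45.5 CPM in Phf21bΔ4/Δ4 mice and 65.1, 60.1, and 71.2 CPM in Phf21b+/+ mice. Replicates 2 and 3 lay above and replicate 6 lay below all Phf21b+/+ mice, so that the log2 change of 0.46 over 3 mice became 0.96 without replicate 6 (FDR 0.00983, limma, against up to 0.805 without another mouse). *Plxna4*, the most abundant plexin, overlapped between the genotypes (log2 change 0.23, SE 0.13, FDR 0.314 by limma), as did *Plxna3*, *Plxnb1*, *Plxnb2*, and *Plxnb3*.

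The neuropilins, the ligand-binding coreceptors, pointed in different directions. *Nrp2*, which binds Sema3f, was at 102, 80.6, and 73.2 CPM in Phf21bΔ4/Δ4 mice and 114, 104, and 111 CPM in Phf21b+/+ mice. All Phf21bΔ4/Δ4 mice were below the Phf21b+/+ mice, by a small margin for replicate 2 (log2 change -0.37, SE 0.13, FDR 0.170 by limma). *Nrp1*, which binds Sema3a, was at 188, 119, and 129.6 CPM in Phf21bΔ4/Δ4 mice and 129, 105, and 109 CPM in Phf21b+/+ mice, with overlap between the genotypes (log2 change 0.32, SE 0.18, FDR 0.306 by limma).

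**Figure D3:**
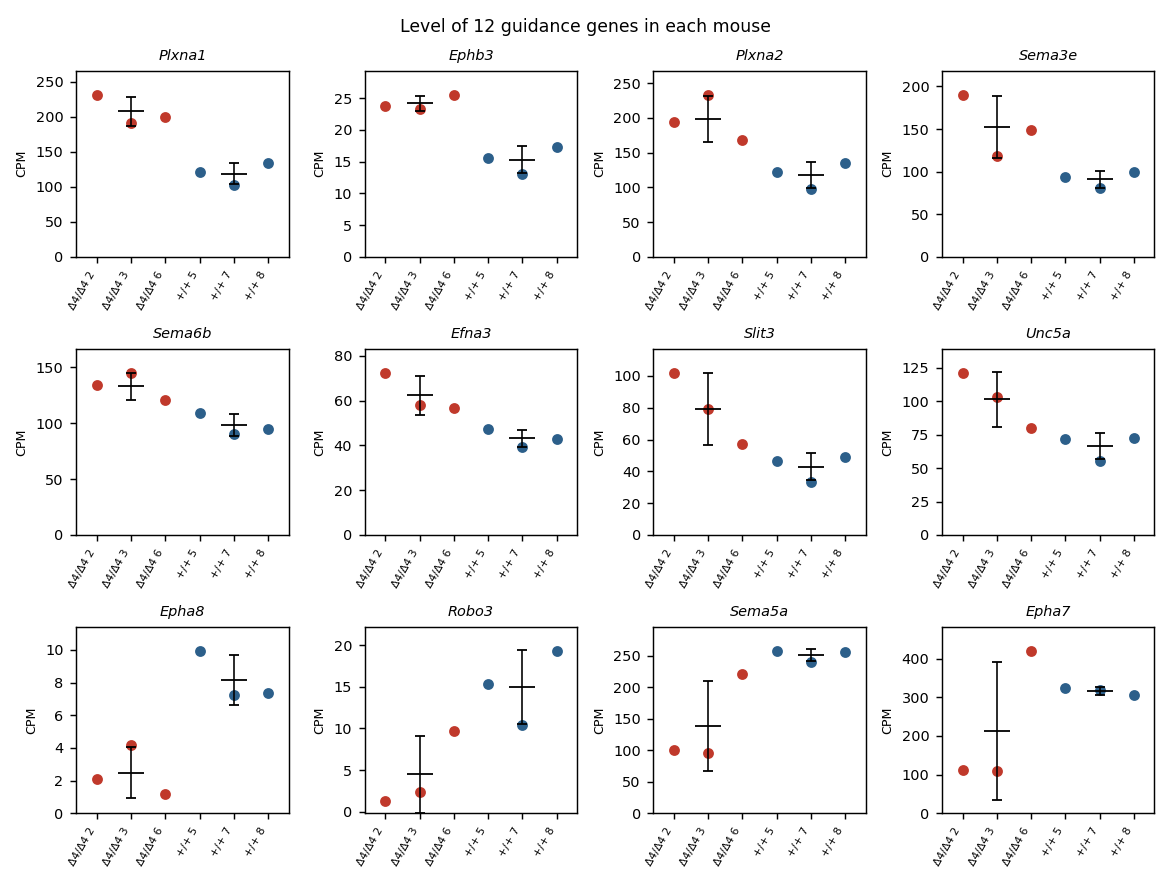
CPM of 12 guidance genes in each mouse (horizontal axis: genotype and replicate, red for Phf21bΔ4/Δ4 and blue for Phf21b+/+), with the mean and SD of the 3 mice of a genotype as a black line and bar. *Plxna1* is at 192 to 231 CPM in Phf21bΔ4/Δ4 mice and 102 to 133 CPM in Phf21b+/+ mice, whereas *Epha7* is at 111, 110.2, and 419 CPM in Phf21bΔ4/Δ4 mice and 306 to 325 CPM in Phf21b+/+ mice.

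Among the ephrins, *Efna3* and *Efna1* pointed in opposite directions. *Efna3* was at 72.3, 58.0, and 56.9 CPM in Phf21bΔ4/Δ4 mice and 47.3, 39.5, and 42.8 CPM in Phf21b+/+ mice, with every Phf21bΔ4/Δ4 mouse above the Phf21b+/+ mice (log2 change 0.53, SE 0.12, FDR 0.133 by limma). Of its exons, 14.1% overlap *Gm15998* on the other strand. *Efna1* was at 3.58, 3.57, and 3.91 CPM in Phf21bΔ4/Δ4 mice and 4.51, 5.28, and 5.35 CPM in Phf21b+/+ mice, with every Phf21bΔ4/Δ4 mouse below (log2 change -0.45, SE 0.15, FDR 0.167 by limma). The genes are neighbors on the minus strand of chromosome 3 with 32.8 kb between them. *Efnb2*, a transmembrane ephrin, was at 49.8, 64.2, and 16.4 CPM in Phf21bΔ4/Δ4 mice and 14.7, 11.4, and 16.6 CPM in Phf21b+/+ mice. Replicates 2 and 3 had the highest levels, whereas replicate 6 lay within the range of the Phf21b+/+ mice (log2 change 1.41, SE 0.49, FDR 0.169 by limma), and without replicate 6 the log2 change was 2.01 (FDR 0.00983, limma, against up to 0.394 without another mouse). *Efna5* had the same order of Phf21bΔ4/Δ4 mice, at 8.10, 14.1, and 1.91 CPM in Phf21bΔ4/Δ4 mice and 2.89, 3.25, and 2.65 CPM in Phf21b+/+ mice. *Efnb3*, the most abundant ephrin, was between 98.6 and 111 CPM in all 6 mice (log2 change 0.081, SE 0.075, FDR 0.512 by limma).

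Of the Eph receptors, *Ephb3* was higher in Phf21bΔ4/Δ4 mice. The gene occupies the plus strand of chromosome 16 (GRCm38, 21204755 to 21223305) and encodes a receptor tyrosine kinase for B-type ephrins. *Ephb3* was at 23.7, 23.3, and 25.5 CPM in Phf21bΔ4/Δ4 mice and 15.6, 13.0, and 17.3 CPM in Phf21b+/+ mice. The 3 Phf21bΔ4/Δ4 mice, replicate 6 included, were close together and above all Phf21b+/+ mice, with 24.2 ± 1.19 CPM (SD, n = 3) against 15.3 ± 2.14 CPM (SD, n = 3), and the difference passed the test by a narrow margin (log2 change 0.67, SE 0.12, FDR 0.0976 by limma). The FDR was above 0.1, and up to 0.302, when any mouse other than Phf21bΔ4/Δ4 replicate 6 was left out (limma), and the log2 change stayed between 0.56 and 0.76. Over the 21 alternatives, the FDR ran from 0.017 to 0.302, and *Ephb3* did not pass in 12 of them. *Ephb6*, a family member without kinase activity, was at 121, 110.0, and 78.2 CPM in Phf21bΔ4/Δ4 mice and 74.7, 48.8, and 59.4 CPM in Phf21b+/+ mice. Replicate 6 was the lowest Phf21bΔ4/Δ4 mouse, just above the highest Phf21b+/+ mouse (log2 change 0.76, SE 0.21, FDR 0.145 by limma). *Ephb1* was at 19.3, 37.1, and 41.7 CPM in Phf21bΔ4/Δ4 mice and 44.9, 40.9, and 53.4 CPM in Phf21b+/+ mice, with overlap between the genotypes, and *Ephb2* and *Ephb4* overlapped as well.

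Among the 7 EphA receptors, which bind A-type ephrins, none passed the test. *Epha8* was at 2.07, 4.19, and 1.17 CPM in Phf21bΔ4/Δ4 mice and 9.92, 7.22, and 7.37 CPM in Phf21b+/+ mice. Each Phf21bΔ4/Δ4 mouse was lower than each Phf21b+/+ mouse (log2 change -1.90, SE 0.45, FDR 0.133 by limma), and the FDR without Phf21bΔ4/Δ4 replicate 3 or 6 was 0.0958 or 0.0476 (limma, with a range of 0.0122 to 0.356 over all alternatives). *Epha7* was at 111, 110.2, and 419 CPM in Phf21bΔ4/Δ4 mice and 325, 318, and 306 CPM in Phf21b+/+ mice. Replicates 2 and 3 were alike and far below the narrow range of the Phf21b+/+ mice, and replicate 6 was above it (log2 change -0.88, SE 0.50, FDR 0.310 by limma); without replicate 6, the log2 change was -1.52 (FDR 0.00141, limma, against up to 0.597 without another mouse). *Epha4*, the most abundant guidance gene, was at 726, 489.7, and 1123 CPM in Phf21bΔ4/Δ4 mice and 873, 749.8, and 752 CPM in Phf21b+/+ mice, with replicate 6 highest and replicate 3 lowest (log2 change -0.10, SE 0.28, FDR 0.839 by limma). *Epha3*, *Epha5*, and *Epha6* were also higher in replicate 6 than in replicates 2 and 3, and their genotypes overlapped, as did those of *Epha10*.

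Promoter sequence was read from RefSeq for these genes because the study links PHF21B, the protein of *Phf21b*, to CREB, a factor that binds the cyclic AMP response element. In the 250 bases before the transcription start, its core site (TGACG, or CGTCA on the other strand) was present in 17.8% of 32851 mouse promoters. It was present in 6 of 74 promoters (8.11%) of the 58 guidance genes with an entry, and the full site (TGACGTCA) was present in 1.55% of all promoters and in 0 of these. The 6 stretches are shown because *Ephb3* is among them, 5′ to 3′ on the strand of the gene in GRCm38.p6, with the core site in capitals.
Ephb3: gcctgagtgtTGACGggcaggcagg
Efnb2: ggcggcagacTGACGggaatgctgc
Efnb1: gcaaggacccCGTCAcagagctttc
Epha4: ggcgggtgtaCGTCAcgggccggtc
Unc5c: agccgggagaCGTCAgtggctaggc
Sema3d: cagacgaagaCGTCAcaggctgttt
They lie at chr16:21204706-21204730 (*Ephb3*, plus strand, with the site starting 79 bases before the start), chr8:8661338-8661362 (*Efnb2*, minus strand, 110 bases), chrX:99136025-99136049 (*Efnb1*, plus strand, 26 bases), chr1:77515131-77515155 (*Epha4*, minus strand, 57 bases), chr3:141465475-141465499 (*Unc5c*, plus strand, 79 bases), and chr5:12383072-12383096 (*Sema3d*, plus strand, 84 bases). Of these genes, *Ephb3* passed the test, and the genotypes overlapped in the other 5. A match of letters is a description and not a bound site. Promoters of *Plxna1*, *Plxna4*, *Slit1*, *Dcc*, *Unc5d*, *Ntn1*, *Efnb3*, *Sema3b*, *Sema3f*, and *Sema6a* were not used here.

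Of the 4 netrins, 3 had a log2 change above 0, and none passed the test. *Ntn3* was at 11.0, 11.9, and 10.004 CPM in Phf21bΔ4/Δ4 mice and 9.30, 7.47, and 8.09 CPM in Phf21b+/+ mice, and the genotypes did not overlap (log2 change 0.41, SE 0.13, FDR 0.165 by limma). *Ntn1*, the best-known netrin, was at 11.9, 9.53, and 10.5 CPM in Phf21bΔ4/Δ4 mice and 8.35, 8.99, and 9.08 CPM in Phf21b+/+ mice, also without overlap (log2 change 0.27, SE 0.12, FDR 0.244 by limma). *Ntn4*, the most abundant netrin per kilobase, was at 5.78, 7.72, and 6.96 CPM in Phf21bΔ4/Δ4 mice and 6.50, 13.1, and 8.40 CPM in Phf21b+/+ mice, with its highest level in Phf21b+/+ replicate 7. *Ntn5* was at 2.74, 3.38, and 0.217 CPM in Phf21bΔ4/Δ4 mice and 1.04, 0.169, and 0.989 CPM in Phf21b+/+ mice. It was near the limit of detection in Phf21bΔ4/Δ4 replicate 6 and Phf21b+/+ replicate 7 (log2 change 1.17, SE 1.21, FDR 0.555 by limma). Without replicate 6 its log2 change was 2.43 (FDR 0.108, limma). *Ntn5* shares 23.4% of its exons with *Sec1* on the other strand.

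All 5 netrin receptors had a log2 change above 0, with a median of 0.53, and none passed the test. *Unc5a*, one of the Unc5 receptors through which netrins repel axons, was at 121, 103, and 80.1 CPM in Phf21bΔ4/Δ4 mice and 71.6, 55.5, and 72.1 CPM in Phf21b+/+ mice. Every Phf21bΔ4/Δ4 mouse was above every Phf21b+/+ mouse, replicate 6 least so (log2 change 0.60, SE 0.17, FDR 0.150 by limma). *Dcc*, the receptor through which netrin-1 attracts axons, was at 64.3, 75.6, and 47.6 CPM in Phf21bΔ4/Δ4 mice and 42.8, 33.9, and 52.6 CPM in Phf21b+/+ mice. Replicate 6 lay within the range of the Phf21b+/+ mice (log2 change 0.53, SE 0.22, FDR 0.201 by limma). *Unc5d* was at 70.7, 57.8, and 23.7 CPM in Phf21bΔ4/Δ4 mice and 29.6, 23.9, and 30.2 CPM in Phf21b+/+ mice, and without replicate 6, which lay below all Phf21b+/+ mice, its log2 change was 1.20 (FDR 0.0145, limma, against up to 0.576 without another mouse). *Unc5c* had a log2 change of 0.44 (SE 0.19) and *Unc5b* of 0.14 (SE 0.12). The netrin-G genes, which encode lipid-anchored proteins of axons, had log2 changes of 0.048 (*Ntng1*, SE 0.48) and -0.0095 (*Ntng2*, SE 0.21). *Ntng1* varied widely, at 52.4, 93.2, and 25.1 CPM in Phf21bΔ4/Δ4 mice and 64.6, 52.5, and 32.6 CPM in Phf21b+/+ mice.

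The 3 Slit ligands all had a log2 change above 0. *Slit3* was at 102, 79.2, and 57.0 CPM in Phf21bΔ4/Δ4 mice and 46.6, 33.0, and 48.9 CPM in Phf21b+/+ mice. Replicate 2 had the highest and replicate 6 the lowest level among Phf21bΔ4/Δ4 mice, and the genotypes did not overlap (log2 change 0.87, SE 0.24, FDR 0.144 by limma). *Slit1*, the most abundant Slit, was at 232, 185, and 196 CPM in Phf21bΔ4/Δ4 mice and 168, 132, and 164 CPM in Phf21b+/+ mice, again without overlap (log2 change 0.40, SE 0.13, FDR 0.164 by limma). *Slit2* was at 149.5, 101, and 43.1 CPM in Phf21bΔ4/Δ4 mice and 50.3, 62.5, and 67.9 CPM in Phf21b+/+ mice. Replicates 2 and 3 lay above the Phf21b+/+ mice and replicate 6 below them, so that the log2 change of 0.54 (FDR 0.447, limma) became 1.04 without replicate 6 (FDR 0.0358, limma, against up to 0.845 without another mouse).

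Of the Robo receptors, *Robo1* and *Robo2*, the main receptors for Slits in the brain, overlapped between the genotypes, with log2 changes of 0.15 (SE 0.12) and 0.23 (SE 0.13). *Robo3*, which is known for allowing axons to cross the midline, was at 1.27, 2.38, and 9.74 CPM in Phf21bΔ4/Δ4 mice and 15.4, 10.4, and 19.3 CPM in Phf21b+/+ mice. All Phf21bΔ4/Δ4 mice were lower, but replicate 6 was only just below Phf21b+/+ replicate 7 (log2 change -2.23, SE 0.71, FDR 0.158 by limma). Its log2 change was -3.06 without Phf21bΔ4/Δ4 replicate 6 (FDR 0.0145, limma, with a range of 0.0116 to 0.36 over all alternatives). *Robo4* was at 3.37, 3.48, and 3.13 CPM in Phf21bΔ4/Δ4 mice and 2.33, 2.15, and 1.84 CPM in Phf21b+/+ mice, with every Phf21bΔ4/Δ4 mouse higher (log2 change 0.66, SE 0.19, FDR 0.147 by limma). *Robo3* and *Robo4* lie end to end on chromosome 9 with 0.554 kb between them, *Robo4* on the plus and *Robo3* on the minus strand, and they differed in opposite directions. No guidance gene lies close to *Phf21b* itself on chromosome 15. *Plxnb2*, at 4.3 Mb, is the nearest, and *Sema5a* is 52.1 Mb away.

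The number of guidance genes that passed the test depended on which mouse was left out. Without Phf21bΔ4/Δ4 replicate 6, 30 of the 68 (44.1%) were differentially expressed, 23 higher and 7 lower, against 19.5% of all genes (10.3% higher and 9.29% lower). The 7 lower genes were *Sema5a*, *Sema6d*, *Sema7a*, *Epha3*, *Epha7*, *Epha8*, and *Robo3*. The 23 higher genes included 5 semaphorins of classes 4 to 7, 4 plexins, 3 netrin receptors, 2 Slits, and 2 EphB receptors, and no EphA receptor was among them. Of the 24 genes whose genotypes did not overlap over all 6 mice, 17 were among these 30. Without Phf21bΔ4/Δ4 replicate 3, *Epha8* alone passed, against 0.311% of all genes. Without Phf21bΔ4/Δ4 replicate 2 or Phf21b+/+ replicate 5, 7, or 8, no guidance gene passed, and 0.193%, 0.187%, 0.0967%, and 0.0622% of all genes did. Weighting the mice by limma's arrayWeights gave 35 of the 68 against 24.5% of all genes, and leaving out both libraries that stood apart gave 28 against 14.3%. The weights, estimated from these same mice, were very uneven. They were 2.04, 0.55, and 0.34 for Phf21bΔ4/Δ4 mice and 1.01, 0.55, and 4.63 for Phf21b+/+ mice.

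Replicate 6 was the Phf21bΔ4/Δ4 mouse nearest to the Phf21b+/+ mean in 35 of the 68 (51.5%) and in 52.0% of all genes, and it fell within the range of the Phf21b+/+ mice in 13 of the 68 (19.1%) and in 37.7% of all genes. Replicates 2 and 3 both lay outside that range on one side in 45 of the 68 (66.2%), 31 above (45.6%) and 14 below (20.6%), against 55.3% of all genes (26.8% above and 28.5% below). When the mice were left out 1 at a time, 53 genes kept the sign of their log2 change in all 6 fits, and 15 did not. Among the 53 were all 24 genes whose genotypes did not overlap, which keep their sign in such fits by construction.

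**Figure D4:**
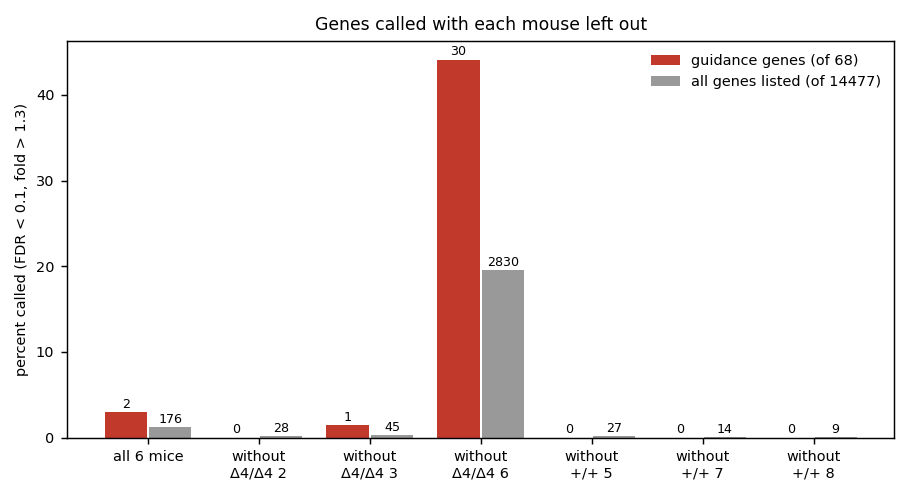
Percent of genes that were differentially expressed (vertical axis) with all 6 mice and with each mouse left out, for the 68 guidance genes in red and all 14477 genes in gray, with the number of genes above each bar. The tallest pair of bars is that without Phf21bΔ4/Δ4 replicate 6, at 30 guidance genes and 2830 of all genes.

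Marker genes of cell types moved along with several guidance genes, and their part in those differences was not tested. The dentate granule list (15 genes, 14 of them with an unadjusted p under 0.05, all lower, and 2 differentially expressed) had its highest Phf21bΔ4/Δ4 value in replicate 6, as had *Sema5a*, *Epha7*, and *Sema7a*. The summed CPM of the medial habenula list (14 of 20 genes differentially expressed, all lower) was lower in all 3 Phf21bΔ4/Δ4 mice, as were *Robo3* and *Epha8*. In 19 of the 20 genes the genotypes did not overlap, 18 lower and 1 higher, against 31.0% of all genes. The higher gene was *Spon1*, at 146, 176, and 124 CPM in Phf21bΔ4/Δ4 mice and 117, 101, and 106 CPM in Phf21b+/+ mice. Of the list, *Pou4f1*, *Chat*, *Slc18a3*, and *Irx2* were at no more than 3 reads in every Phf21bΔ4/Δ4 mouse. Among Phf21bΔ4/Δ4 mice, the summed CPM of the medial habenula list was lowest in replicate 6, and *Robo3* was highest there. *Synpr* (159, 119, and 178 CPM) and *Spon1* made up most of the sum in all 3 Phf21bΔ4/Δ4 mice (477, 470, and 417 CPM). The order of the mice also differed between genes of the list. As examples chosen after their values were seen, *Lrrc55* and *Synpr* were highest in replicate 6, as was *Robo3*. *Nwd2*, *Calb2*, *Spon1*, and *Tac1* were lowest there, and *Kcnip1* was highest in replicate 3. The choroid plexus list (1 of 9 genes differentially expressed, lower) was highest in Phf21b+/+ replicate 7, as were *Sema3b*, *Sema3f*, *Plxnb2*, and *Ntn4*. The CA1 list (5 of 13 genes differentially expressed, all higher) had a summed CPM of 1692 to 1828 in Phf21bΔ4/Δ4 mice and 836 to 951 in Phf21b+/+ mice, without overlap. Of its genes, 7 did not overlap, all higher (53.8%, against 15.0% of all genes), and *Lct* was lower (log2 change -2.07, FDR 0.227 by limma). *Plxna1*, *Ephb3*, and the other 15 guidance genes higher in every Phf21bΔ4/Δ4 mouse lack overlap by definition. Among Phf21bΔ4/Δ4 mice, the CA1 sum and *Ephb3* were highest in replicate 6, but *Slit3*, *Unc5a*, and *Ephb6* were lowest there. The GABAergic interneuron list (1 of 14 differentially expressed, higher) was at 1115 to 1331 against 760 to 871, and the endothelial and pericyte list (0 of 11), beside *Robo4*, was at 288 to 417 against 194 to 274. At an unadjusted p under 0.05 there were 6 of the 11 endothelial and pericyte genes, all higher (limma).

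**Figure D5:**
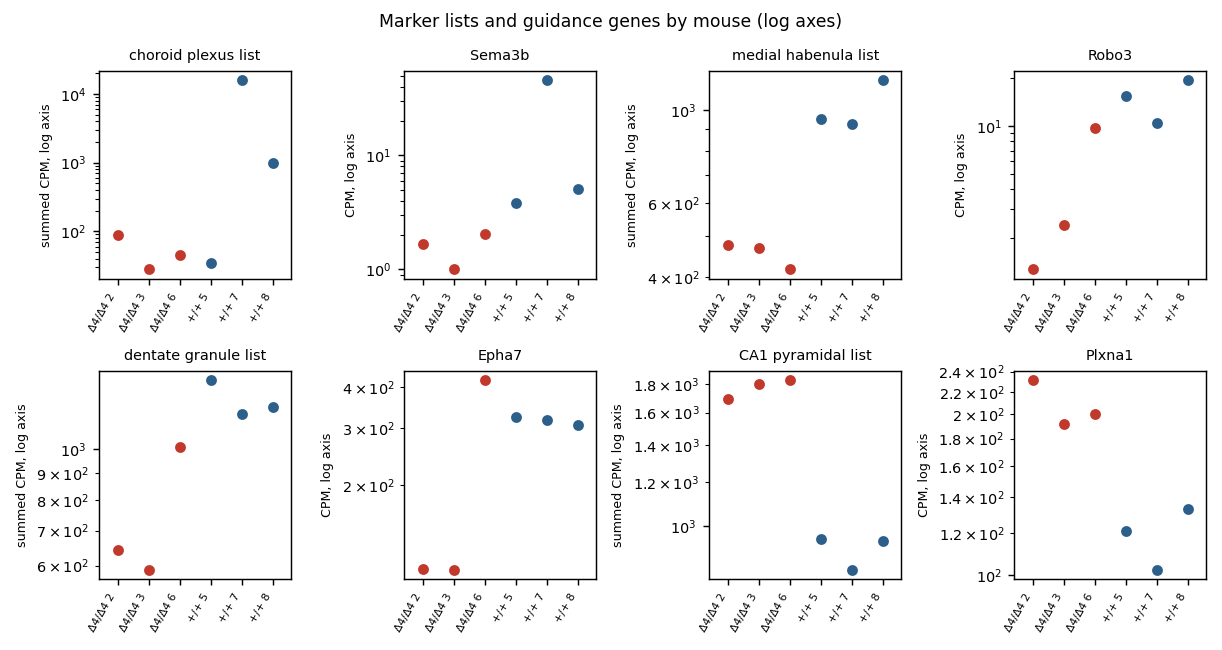
Summed CPM of 4 lists of cell type markers, each with a guidance gene to its right in CPM, in each mouse on log axes (red for Phf21bΔ4/Δ4, blue for Phf21b+/+). *Sema3b* and the choroid plexus list are highest in Phf21b+/+ replicate 7, *Epha7* and the dentate granule list are highest among Phf21bΔ4/Δ4 mice in replicate 6, and the medial habenula and CA1 lists, like *Robo3* and *Plxna1*, do not overlap between the genotypes.

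Other genes of the same pathways were followed in lists written from general knowledge, of 58 genes that act inside the cell and 46 listed ligands, receptors, and coreceptors of other families. Of these 104 genes, 1 was differentially expressed, and lower (0.962%, against 1.22% of all genes), and 36 did not overlap between the genotypes (34.6%, against 31.0% of all genes), 25 higher and 11 lower. Their median log2 change was 0.12. The gene that passed was *Vav3*, a signaling protein that acts after Eph receptors, at 11.9, 11.7, and 22.4 CPM in Phf21bΔ4/Δ4 mice and 68.9, 59.5, and 67.9 CPM in Phf21b+/+ mice (log2 change -2.16, SE 0.25, FDR 0.0465 by limma). All 3 Phf21bΔ4/Δ4 mice were far below the Phf21b+/+ mice, replicate 6 less so, and *Vav3* did not pass when any one mouse other than replicate 6 was left out. Without replicate 6, 45 of the 104 passed, against 19.5% of all genes. *Lrrc4c*, the partner of netrin-G1 on the receiving cell, was at 162, 206, and 141 CPM in Phf21bΔ4/Δ4 mice and 123, 97.7, and 120.4 CPM in Phf21b+/+ mice, without overlap (log2 change 0.57, SE 0.16, FDR 0.145 by limma). *Lrrc4*, the partner of netrin-G2, had a log2 change of 0.067 (SE 0.12), and *Lrrc4b*, of the same family, had one of 0.31 (SE 0.096, FDR 0.154 by limma) without overlap.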

How the data were processed

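Hippocampal total RNA of 6 mice was sequenced after removal of ribosomal RNA. The authors trimmed reads with Trimmomatic 0.39, mapped them to GRCm38 with STAR 2.7.3a, counted them over GENCODE genes with featureCounts (Subread 1.6.4), kept genes at 1 CPM or more in 2 or more samples, and deposited log2 CPM scaled to effective library size with edgeR. The tools and versions are those of the submitters' processing notes. All deposited log2 values corresponded to whole reads (100% within a tolerance of 0.1) with a mean prior count of 0.1, so CPM and reads were worked out from them. The authors' own test was that of edgeR on counts. It was not repeated on the recovered reads. Instead, limma 3.58.1 in R 4.3.3 (lmFit, eBayes with trend) was applied to the deposited values with the thresholds of the paper. The paper's list from edgeR holds *Plxna1* (higher) and *Vav3* (lower) but not *Ephb3*. The depth of 20495605 to 24881257 reads limits counting error only. With 3 mice per genotype, the spread is between mice, and an exact permutation test of a gene cannot give a p below 0.1.

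Gene positions and exon lengths are from GENCODE (98.6% of the symbols matched), and promoters are from RefSeq (GRCm38.p6). Levels of different genes were compared per kilobase of merged exon. Named genes are those called, those without overlap and with an unadjusted p under 0.05, the most abundant of each family, and the netrin-G partners; others were named after their values were seen. The members, pathway lists, and 14 marker lists were chosen with earlier results of these data known. The test was also run on simulated reads drawn independently for each mouse, which cannot show how it behaves with the spread between these mice. Alternatives were another prior variance, robust fitting, arrayWeights, a minimum mean log2 CPM of 1, log2(CPM + 1), log2(CPM + 0.1), quantile normalization, median centring, limma voom on the recovered reads with the recovered effective sizes, a stricter FDR (0.05), removal of the fold threshold, a 2-fold threshold, loess corrections for GC content of the longest transcript and for exon length, and leaving out each mouse. Leaving out both mice that stood apart was added after the data were seen. Python 3.11.15, NumPy 2.4.6, pandas 2.3.3, and matplotlib 3.10.9 were used for tables and figures.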

Additional observations from a re-analysis of the deposited data

How the results depend on the processing

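Over the alternatives, the log2 change kept its direction in *Phf21b* and in the 21 guidance genes without overlap and with an unadjusted p under 0.05. In these genes, by construction, leaving out or weighting mice and changing thresholds or prior variance could not turn the log2 change. Among the most abundant genes of each family, it turned in *Efnb3* with quantile normalization (-0.0042), in *Ntng1* with the correction for exon length (-0.015), without Phf21bΔ4/Δ4 replicate 3 (-0.41), and without Phf21b+/+ replicate 8 (-0.23), and in *Epha4* without Phf21bΔ4/Δ4 replicate 3 (0.19). With 1 mouse left out, the log2 change of *Ntng1* ran from -0.41 to 0.54 and that of *Epha4* from -0.40 to 0.19. The median log2 change of the guidance genes stayed between 0.16 and 0.28. The number of differentially expressed guidance genes was 2 and moved to 0 with the same prior variance for all genes, with an FDR under 0.05, and with a fold change above 2, and to 1 with a minimum mean log2 CPM of 1, with quantile normalization, and with limma voom. With arrayWeights, it was 35 (11 lower and 24 higher), and with both mice that stood apart left out, an alternative added after the data were seen, it was 28 (9 lower and 19 higher). The genes without overlap then numbered 46 (67.6%, against 62.8% of all genes) in place of 24; fewer mice give less overlap by construction. The count over all genes was 176 and moved to 75 (same prior variance), 3549 (arrayWeights), 101 (minimum mean), 25 (FDR under 0.05), 90 (fold change above 2), and 2066 (both mice left out), and the share of these calls that were lower moved from 54.5% to 82.7%, 58.2%, 45.5%, 80.0%, 83.3%, and 45.9%. The count of other pathway genes was 1 and moved to 38 (arrayWeights), 2 (GC correction), and 28 (both mice left out). The log2 change of *Phf21b* was -1.32 with arrayWeights (FDR 0.0122, limma) and -1.23 with both mice left out (FDR 0.068, limma), and its FDR ran from 0.0122 to 0.356 over the alternatives.

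When the mice were left out 1 at a time, the count over all genes ran from 9 (without Phf21b+/+ replicate 8) to 2830 (without Phf21bΔ4/Δ4 replicate 6), that of guidance genes from 0 to 30 (lower from 0 to 7, higher from 0 to 23), that of other pathway genes from 0 to 45, and that of guidance genes without overlap from 26 (38.2%, against 37.2% of all genes, without Phf21b+/+ replicate 7) to 45 (66.2%, against 55.3%, without Phf21bΔ4/Δ4 replicate 6). The log2 change of *Phf21b* ran from -1.12 to -0.70. The cause of these shifts was not tested; the stricter thresholds lower a count by construction. No paired analysis was possible because the genotypes share no replicate numbers. With 3 mice per genotype, a log2 change with a large SE, such as that of *Ntng1*, does not show that the genotypes were alike.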

Other observations

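Of 46 ligands, receptors, and coreceptors of other families, 17 did not overlap between the genotypes (37.0%, 13 higher and 4 lower), and of 58 genes that act inside the cell, 19 did not (32.8%, 12 higher and 7 lower). Both shares were near the 31.0% of all genes (15.0% higher and 16.0% lower). Examples that did not pass the test, chosen after their values were seen, are *Lingo1*, a coreceptor for myelin inhibitors (log2 change 0.80, FDR 0.116 by limma), *Chl1*, a cell adhesion molecule (0.80, FDR 0.135 by limma), *Mical2*, an actin-oxidizing enzyme (0.65, FDR 0.116 by limma), *Ret*, the signaling receptor of the GDNF family (-1.10, FDR 0.133 by limma), and *Vav2*, a relative of *Vav3* (-0.75, FDR 0.132 by limma).

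Among lists of cell types not set beside a guidance gene, the summed CPM of CA2 and CA3 genes was 1018 to 1299 in Phf21bΔ4/Δ4 mice and 1071 to 1191 in Phf21b+/+ mice (0 of 16 differentially expressed). Lateral habenula and thalamus genes came to 974 to 1448 against 1268 to 1685 (2 of 17, both lower), and astrocyte genes to 6340 to 7563 against 5680 to 7135 (1 of 10, lower). No gene was differentially expressed by limma in the lists of oligodendrocytes (6723 to 10070 against 7874 to 10822, with 0 of 12 at an unadjusted p under 0.05), their precursors (394 to 473 against 446 to 515, 4 of 6, 3 higher and 1 lower), microglia (488 to 555 against 500.3 to 540, 1 of 10, higher), fibroblasts (19.4 to 187 against 49.8 to 67.9, 4 of 8, all lower), and immature neurons (378 to 547 against 428 to 481, 5 of 7, 4 lower and 1 higher). The lists share some genes. *Dcn*, also in the CA1 list, gave 152 of 187 and 101 of 121 CPM of the fibroblast sum in Phf21bΔ4/Δ4 replicates 2 and 3. *Calb2* is in both habenula lists and in that of immature neurons.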
